A study of Mus musculus with 6 samples.

Results

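Guanylate-binding proteins (GBPs) and immunity-related GTPases (IRGs) are GTP-hydrolysing enzymes that cells make when they are exposed to interferons. The expression of 10 genes of these families was followed here in microglia that had been cultured with neutrophils: Gbp2, Gbp3, Gbp4, Gbp5, Gbp7, Gbp9, Irgm1, Irgm2, Igtp and Iigp1. They were found by symbol among the 55335 mouse gene identifiers of the deposited table, and all 10 were present. In the main comparison 7 of the 10 genes had lower values in every library of microglia cultured with Cd177 KO neutrophils than in any library with Cd177 WT neutrophils, and the remaining 3, Gbp4, Gbp5 and Iigp1, were at or near 0 in both groups. Of all genes above 0 in any library, 15.2% were separated in this direction.

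RNA was sequenced from primary microglia of neonatal C57BL/6 mouse brain, which were shaken off mixed glial cultures on day 14 and carried the WT genotype in both groups. Neutrophils were isolated with magnetic beads from the spinal cord lesions of Cd177 WT or Cd177 KO mice at 3 dpi (days post-injury) and kept together with the microglia for 24 h. Microglia were then sorted by flow cytometry as Ly6G- cells, and 3 libraries were made per neutrophil genotype. The groups are called WT and KO after the neutrophils. No group of microglia without neutrophils was part of the comparison, so a difference gives the distance between the 2 co-cultures and not from resting cells. Whether the 3 libraries of a group came from separate cultures or animals is not stated, and p-values then measure only the spread between these libraries.

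Interferon-gamma acts through the Ifngr1 and Ifngr2 receptor chains and the kinases Jak1 and Jak2, and its target genes often carry a short DNA element named GAS (gamma-activated site). Type I interferons act through Ifnar1 and Ifnar2, and Irf9 helps to bind another element in their target genes, the ISRE (interferon-stimulated response element). GBPs assemble on the membranes of vacuoles that hold microbes and on cytosolic bacteria. Most IRGs load onto such vacuoles, while the Irgm proteins and Igtp (also called Irgm3) sit on the cell's own membranes and restrain the others.

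The genes lie in a few clusters. Gbp2, Gbp3, Gbp5 and Gbp7 are neighbours on chromosome 3 (GENCODE M21, build GRCm38), between 142493978, where Gbp5 begins, and 142638008, where Gbp2 ends. Gbp4 and Gbp9 overlap on chromosome 5. Irgm1 lies on chromosome 11 (48861968 to 48871683), as do Igtp (58199556 to 58207591) and Irgm2 (58199618 to 58222782), which overlap each other. The 110 bases before the start annotated by RefSeq are shown for the members that were above the detection floor of 3 fragments in WT and had a RefSeq promoter window (build GRCm38.p6), because each of these stretches holds an interferon element. RefSeq starts can differ from the GENCODE positions above. The stretches of Irgm1, Irgm2, Gbp3 and Gbp2 reach into the GENCODE span of their gene. They read 5′ to 3′ on the gene's strand, and the capitals mark matches to the ISRE core (GAAA, any 2 bases, GAAA, or TTTC, any 2 bases, TTTC on the other strand) or to GAS (TTCNNNGAA, which reads the same on both strands).
Irgm1, chr11:48871421-48871530, minus strand: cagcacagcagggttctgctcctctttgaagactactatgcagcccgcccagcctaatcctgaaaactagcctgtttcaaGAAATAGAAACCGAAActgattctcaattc
Igtp, chr11:58199446-58199555, plus strand: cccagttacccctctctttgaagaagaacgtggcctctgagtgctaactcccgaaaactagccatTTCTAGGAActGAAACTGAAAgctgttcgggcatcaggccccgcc
Irgm2, chr11:58214867-58214976, plus strand: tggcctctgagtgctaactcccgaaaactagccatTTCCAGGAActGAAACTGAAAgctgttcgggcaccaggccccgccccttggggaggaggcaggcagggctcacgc
Gbp7, chr3:142530226-142530335, plus strand: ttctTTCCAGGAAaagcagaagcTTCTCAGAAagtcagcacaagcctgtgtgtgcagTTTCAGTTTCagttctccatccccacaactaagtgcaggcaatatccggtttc
Gbp3, chr3:142559934-142560043, plus strand: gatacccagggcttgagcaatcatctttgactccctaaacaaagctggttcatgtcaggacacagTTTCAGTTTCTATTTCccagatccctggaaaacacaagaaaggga
Gbp2, chr3:142620553-142620662, plus strand: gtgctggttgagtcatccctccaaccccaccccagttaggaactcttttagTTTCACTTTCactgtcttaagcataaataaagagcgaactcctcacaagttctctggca

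The stretches differ in how the elements are arranged. In Igtp and Irgm2 a GAS match is followed after 2 bases by an ISRE match, and the 120 bases around this pair are 96.7% identical between them. Irgm1 and Gbp3 hold pairs of ISRE matches that overlap and no GAS match. Gbp7 holds 2 GAS matches farther upstream and 1 ISRE match, and Gbp2 a lone ISRE match 59 bases before the start. Across the full windows, 250 bases before to 50 after the start, 7 of the 10 members had an entry, and all 7 held an ISRE core, in 7 of their 8 windows. Among all 32851 RefSeq windows 3.44% held it, counted on both strands. A GAS match was present in 4 of the 7 members (Gbp5, Gbp7, Igtp and Irgm2), beside 9.55% of all genes with a window. By window it was present in 4 of the 8 of the members, beside 8.30% of all windows. Gbp3 has a second annotated start whose window held neither. These matches are descriptions of the letters and not measured binding.

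**Figure D1:**
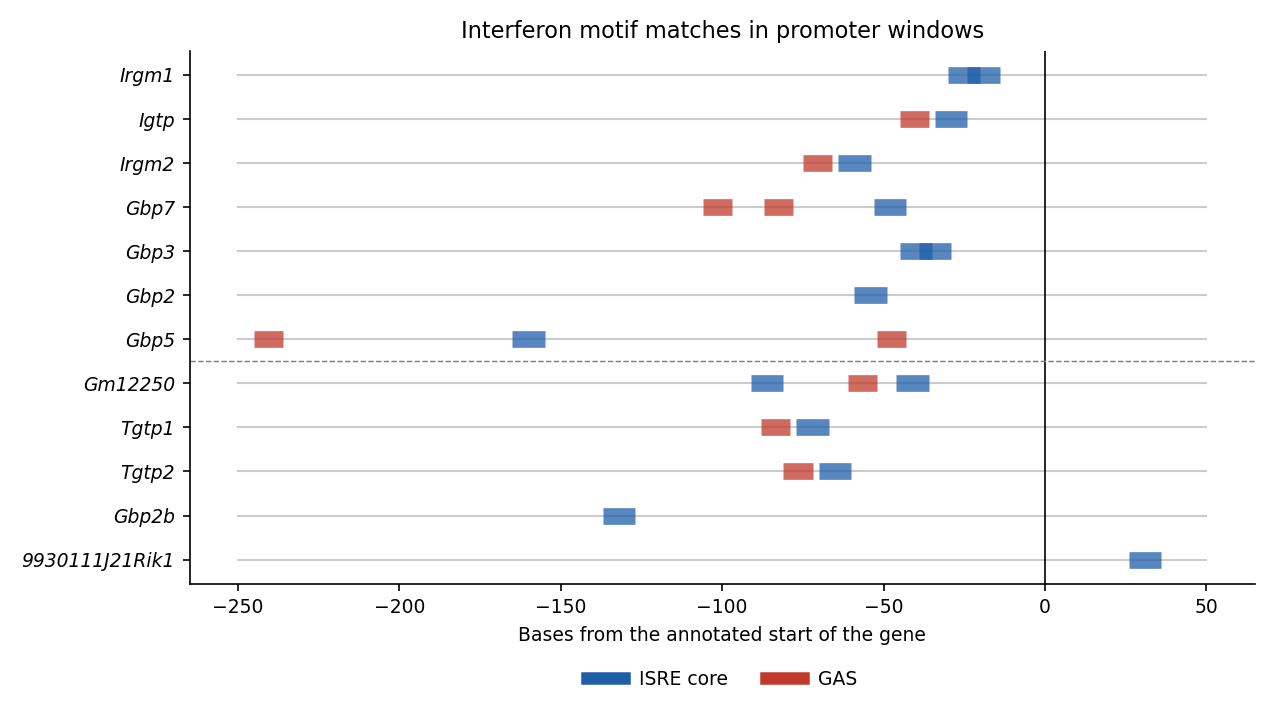
Position of ISRE core (blue) and GAS (red) matches in the promoter windows of GBP and IRG genes, in bases from the annotated start (0), with the members above the dashed line and other family genes with a match below it. In 6 of the 7 members an ISRE match lies within 64 bases before the start, and in Gbp5 it begins 165 bases before it.

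Expression was measured as FPKM (sequenced fragments scaled to the length of the transcript and to the fragments mapped in the library), which is a level per length and can be compared between genes. Irgm1, which guides autophagy and keeps other IRGs inactive, was the most abundant of the 10. Its values were 5.67, 5.63 and 6.02 FPKM in the WT libraries and 3.24, 3.48 and 3.53 FPKM in the KO libraries. The ranges did not overlap, and the KO mean was 59.2% of the WT mean. On the log2(FPKM + 1) scale the change was -0.62 (SE 0.0514, n = 3 per group), with an adjusted p of 0.000199 in limma's test over all genes. Changes on this scale understate those of genes with low values.

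Igtp, an IRG of the Irgm type, was the second most abundant. It had 3.10, 3.08 and 3.16 FPKM with WT neutrophils and 2.40, 2.43 and 1.88 FPKM with KO neutrophils. Every KO library was lower, with a mean at 71.8% of that of WT, the smallest proportional difference among the 7 members that were separated. The log2 change was -0.35 (SE 0.0813), adjusted p = 0.0146. Irgm2, its overlapping neighbour and also an IRG of the Irgm type, had 2.45, 2.78 and 2.71 FPKM against 2.22, 1.52 and 1.42 FPKM. KO replicate 1 lay much nearer to the WT libraries than the other KO libraries did, but still under all of them. The log2 change of Irgm2 was -0.43 (SE 0.119), adjusted p = 0.0271. This call was the least secure: it was lost without WT replicate 2 (adjusted p = 0.0772), WT replicate 3 (0.0738), KO replicate 2 (0.0819) or KO replicate 3 (0.0754), with the replicate number as a block (0.0625), and in the fit without a filter on low genes (0.0778). Igtp shares 11.8% of its 50-base stretches with Irgm2 transcripts, so part of the signal of either could have been assigned to the other.

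Gbp7 was the most abundant GBP. GBPs of this kind are recruited to vacuoles that hold microbes. Its values were 1.56, 1.96 and 1.92 FPKM in WT and 0.848, 0.491 and 0.541 FPKM in KO. The KO mean was 34.5% of the WT mean, and the log2 change was -0.79 (SE 0.111), adjusted p = 0.00187. Gbp7 entered the test only through its WT values, since all KO libraries were under 1 FPKM. It overlaps an annotated transcript, Gm43802, with which it shares 10.5% of its 50-base stretches.

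Gbp3 lay just under the limit for testing, with a mean of 0.981 FPKM over the 6 libraries against the minimum of 1. It had 1.60, 1.35 and 1.25 FPKM in WT and 0.601, 0.540 and 0.551 FPKM in KO, where the KO mean was 40.3% of the WT mean. The groups did not overlap. Fitted with all genes and no filter, its log2 change was -0.61 (SE 0.0791), adjusted p = 0.00467.

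Gbp9 and Gbp2 were expressed at low levels. Gbp9 had 0.385, 0.465 and 0.410 FPKM in WT and 0.0521, 0.0993 and 0.0403 FPKM in KO, of which 2 libraries were at or under 0.0702 FPKM, the highest estimate of what 3 fragments are worth for this gene. The unfiltered fit gave a log2 change of -0.42 (SE 0.0375), adjusted p = 0.00121. Gbp2, a GBP that is recruited early to vacuoles of microbes, had 0.499, 0.243 and 0.492 FPKM in WT and 0, 0.164 and 0.0875 FPKM in KO. The lowest WT and the highest KO library were 0.243 and 0.164 FPKM, so the groups were separated by a narrow gap. Its log2 change without a filter was -0.38 (SE 0.0956), adjusted p = 0.0487, and the call was lost when a pseudocount of 0.1 was used in place of 1 (0.0659). For both genes the KO values were too near the floor for a fold to be given.

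Gbp4, Gbp5 and Iigp1 were under the floor of 3 fragments in all 6 libraries. Gbp4 did not exceed 0.0199 FPKM, Gbp5 was above 0 in a single WT library, at 0.00862 FPKM, and Iigp1, an effector IRG that loads onto vacuole membranes, reached 0.0221 FPKM at most. Differences of these genes between the groups were not detectable at this depth. The promoter window of Gbp5 held both elements.

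**Figure D2:**
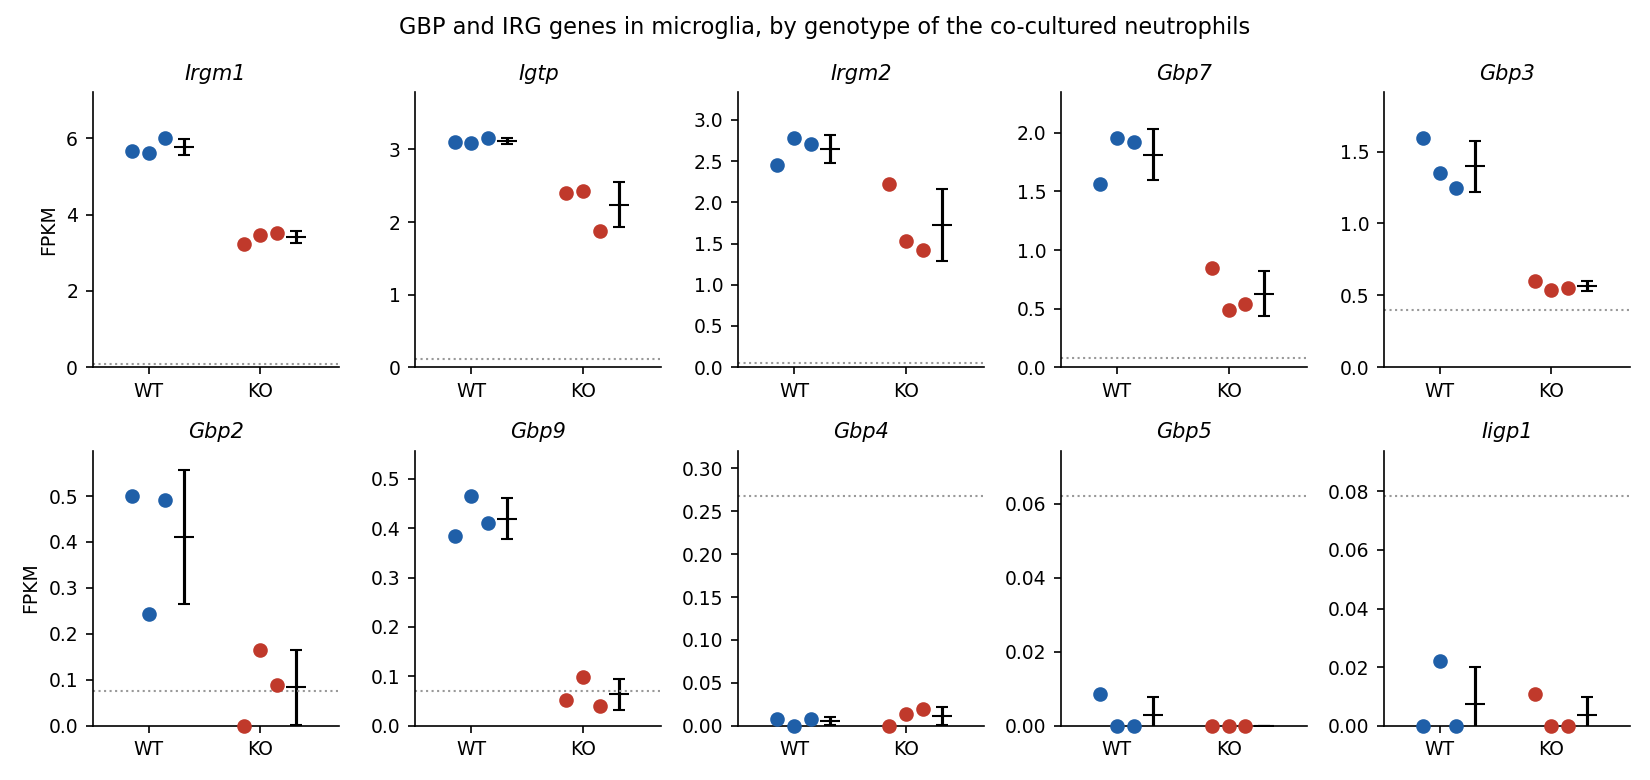
FPKM of the 10 genes in each library (points), by genotype of the co-cultured neutrophils, with the group mean and SD beside them (n = 3) and the estimated value of 3 fragments as a dotted line. Each panel has its own axis from 0. In Irgm1, Igtp, Irgm2, Gbp7, Gbp3, Gbp2 and Gbp9 all KO points lie under all WT points, and the other panels are under the dotted line throughout.

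Counted together, 7 of the 10 members were lower in KO without overlap. Among the 25195 genes above 0 in any library, 15.2% were separated in this direction. A two-sided exact permutation test on single genes gave p = 0.1 for each of the 7, the smallest value that 3 against 3 libraries allow. In the test over all genes, 4 of the 10 members had a mean of at least 1 FPKM (Gbp7, Irgm1, Irgm2 and Igtp), and these 4 were called lower. The share of all 11395 tested genes called lower was 18.8%, and 24.5% were called higher. Rescaling every library to a common sum moved the balance from 2141 lower and 2789 higher genes to 2660 lower and 2175 higher, and left the 4 members lower. Without the filter 10 of 10 could be fitted and 6 were called lower (Gbp2, Gbp3, Gbp7, Gbp9, Irgm1 and Igtp), against 8.13% of all genes. The median log2 change of the 4 tested members was -0.52, and that of all tested genes was 0.02, given as a description since Gbp7 passed the filter through the group in which it was high.

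The FPKM of the 10 genes summed to between 15.3 and 16.0 in the WT libraries and between 8.07 and 9.37 in the KO libraries. The order of the levels in WT was Irgm1, Igtp, Irgm2, Gbp7, Gbp3, and then Gbp9 and Gbp2. Gbp7 and Gbp3 overlapped in WT, as did Gbp9 and Gbp2, and in KO the ranges of Igtp and Irgm2 overlapped as well. The KO means of the 3 IRGs stood between 59.2% and 71.8% of WT, and those of Gbp7 and Gbp3 at 34.5% and 40.3%. Whether the GBPs and IRGs differed in this respect was not tested. In bulk RNA, fewer cells that express a gene and less RNA per cell cannot be told apart.

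**Figure D3:**
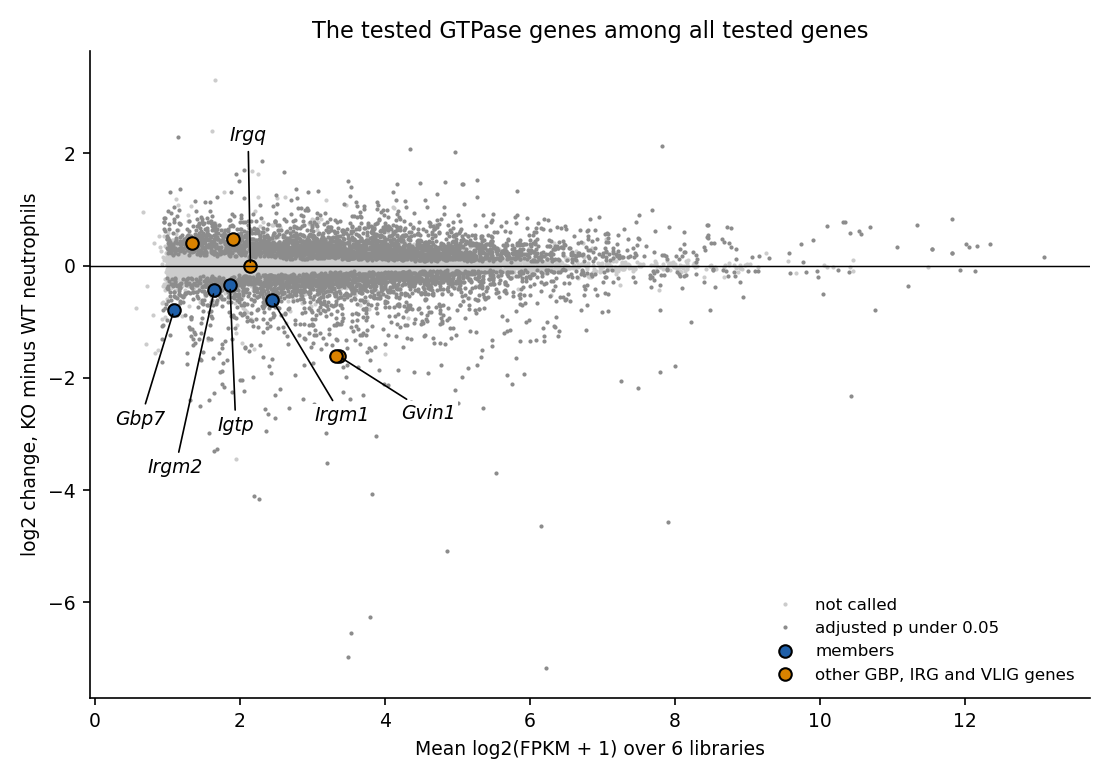
Log2 change between KO and WT (vertical axis) against mean log2(FPKM + 1) over the 6 libraries (horizontal axis) for 11395 tested genes, with the 4 tested members in blue and 5 other family genes in orange. The members lie at the low end of expression with changes from -0.79 to -0.35, within the range of many other called genes.

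Of 19 further genes of the GBP, IRG and very large inducible GTPase families, 5 were tested, of which 2 were called lower and 2 higher (18.8% and 24.5% of all tested genes). Gvin1, a very large interferon-inducible GTPase, had the highest level in the family. It had 17.2, 16.6 and 17.1 FPKM in WT and 5.05, 4.92 and 4.68 FPKM in KO, a mean 3.47-fold lower (log2 change -1.61, SE 0.0402, adjusted p = 1.19e-06). Gm4070 gave nearly the same values, from 16.0 to 16.7 in WT and from 4.55 to 4.84 FPKM in KO. Of the 50-base stretches of Gvin1, 98.3% also occur in Gm4070, so the 2 genes cannot be told apart and count as 1 signal. The higher genes were 9930111J21Rik1 and 9930111J21Rik2, predicted IRG genes near Irgm1. The first had 1.24, 1.19 and 1.183 FPKM in WT and 1.97, 1.69 and 2.17 FPKM in KO (log2 change 0.41, adjusted p = 0.00709). The other rose from a WT mean of 2.18 ± 0.0971 to a KO mean of 3.45 ± 0.200 FPKM (SD, n = 3, log2 change 0.48, adjusted p = 0.00110). They share 80.4% of the stretches of 9930111J21Rik1 and are uncertain as separate signals. Irgq, an atypical family member, had 3.49, 3.31 and 3.55 FPKM against 3.52, 3.32 and 3.38 FPKM, with a log2 change of -0.01 (95% interval -0.13 to 0.11).

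Among the 14 family genes under the filter, Gbp6 had 0.981, 0.742 and 0.501 FPKM in WT and 0.0709, 0.0854 and 0.0479 FPKM in KO. Gbp10 had 0.116, 0.114 and 0.0817 FPKM in WT and had a listed value of 0 with KO neutrophils. Both were called lower in the unfiltered fit (log2 change -0.70, adjusted p = 0.00800, and -0.14, adjusted p = 0.00450). However, 73.3% of the stretches of Gbp10 occur in Gbp6, and 65.0% of those of Gbp6 occur in Gm43302, an annotated transcript that overlaps it. Gbp6 was at or under its floor in 2 of the KO libraries. In the other direction, Gm12250, a predicted IRG gene, had 0.111, 0.101 and 0.0738 FPKM in WT and 0.197, 0.177 and 0.139 FPKM in KO, without overlap but with 4 of 6 libraries at or under its floor, and it was not called (adjusted p = 0.0761). Gm5431 was also higher in every KO library, with at most 0.0328 FPKM in WT and between 0.0439 and 0.0680 FPKM in KO, all under its floor of 3 fragments (adjusted p = 0.0849). Over the 15 of the 19 genes that were above 0, 4 were lower and 4 higher in KO without overlap, beside 15.2% and 17.7% of all genes above 0 in any library. Gbp8 was above its floor in all 6 libraries and did not differ. It had 0.273, 0.261 and 0.381 FPKM in WT and 0.274, 0.442 and 0.175 FPKM in KO (adjusted p = 0.942 in the unfiltered fit). Ifi47, an IRG, had between 0.864 and 0.990 FPKM in WT and between 0.700 and 0.965 FPKM in KO, which overlapped. Gbp2b, Gm4951, Gm4841 and F830016B08Rik were listed at 0 in all 6 libraries. These family genes under the filter were named after their values were seen.

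**Figure D4:**
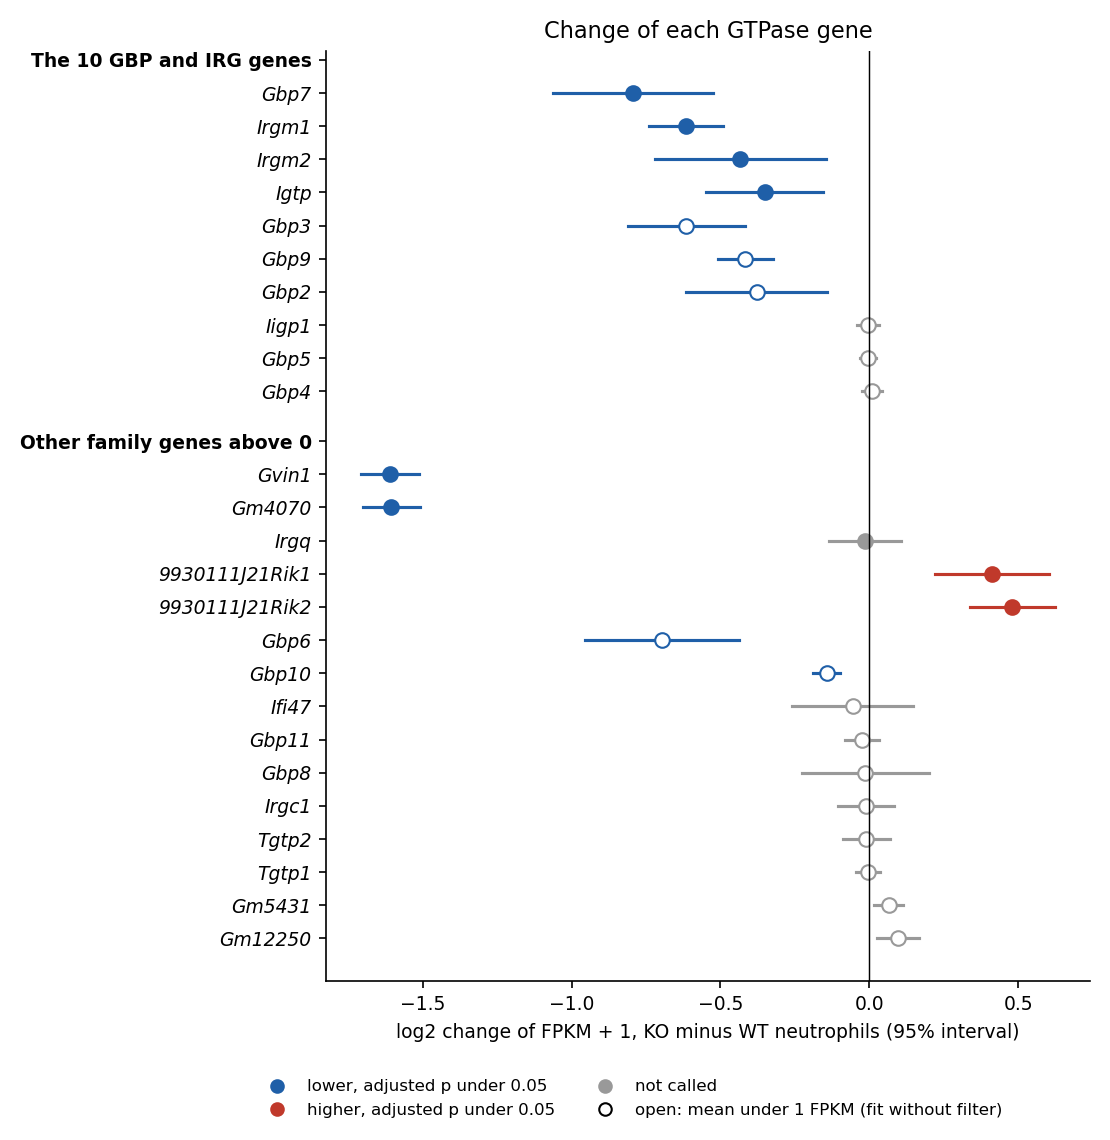
Log2 change of FPKM + 1 between KO and WT with its 95% interval for the 10 GBP and IRG genes and for the 15 other family genes above 0, coloured by direction where the adjusted p was under 0.05. Open points had a mean under 1 FPKM and come from the fit without a filter. In the upper part, 7 of 10 genes lie left of 0 with intervals that exclude it, while the lower group holds genes on both sides.

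The genes whose profile over the 6 libraries was most like the mean of the 4 tested members, outside the families, were Aup1, Cnot4, Rab3ip, Glce and Hmga2, with Pearson's r from 0.996 to 0.998 (n = 6 libraries). This measure mostly reflects the difference between the groups, and 871 genes had an r above 0.95. Rab3ip, for example, had 7.27, 7.48 and 7.68 FPKM in WT and 5.82, 5.16 and 4.93 FPKM in KO.

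The interferon genes themselves gave little signal in these libraries. Ifng, which encodes interferon-gamma, was listed at 0 in all 6 libraries, and Ifnb1, which encodes interferon-beta, was above 0 in 1 WT library, at 0.0837 FPKM, under its floor of 3 fragments. None of the 9 ligand genes reached the level for testing. This RNA came from the sorted microglia and says nothing of interferon made by the neutrophils.

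The 4 receptor genes were all expressed. Ifnar2, a chain of the type I interferon receptor, fell from 16.6, 17.7 and 16.7 FPKM in WT to 12.4, 12.3 and 13.3 FPKM in KO (log2 change -0.40, SE 0.0435, adjusted p = 0.000648). Ifnar1, its partner chain, had overlapping values, between 9.92 and 12.5 FPKM in WT and between 9.24 and 12.0 FPKM in KO. Ifngr1, the ligand-binding chain for interferon-gamma, had 7.68, 4.71 and 5.74 FPKM in WT and 6.47, 7.39 and 6.95 FPKM in KO. It was not called (adjusted p = 0.339), but without WT replicate 1 it was called higher (log2 change 0.35, adjusted p = 0.0345). Ifngr2, the other chain, had means of 21.8 ± 0.484 and 20.5 ± 0.431 FPKM (SD, n = 3), with an adjusted p of 0.0665 that became 0.0187 on the common-sum scale.

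Of the 8 genes that relay the interferon signal, 4 were called lower and 0 higher, beside 18.8% and 24.5% of all tested genes, with a median log2 change of -0.21 beside 0.02. The call of the kinase Jak1 (log2 change -0.12, adjusted p = 0.0342) was lost without a filter, without the variance trend, with the replicate block and without any 1 library but KO replicate 1 (adjusted p from 0.0570 to 0.0888). Jak2, a kinase of the interferon-gamma receptor, fell from a mean of 10.01 ± 0.213 to 4.74 ± 0.491 FPKM (log2 change -0.94, adjusted p = 0.000108). Irf9, the DNA-binding part of the type I complex, went from 5.41 ± 0.710 to 3.399 ± 0.438 FPKM (log2 change -0.54, adjusted p = 0.00856). Irf1, an interferon-induced factor that drives many GBP genes, did not move with them. Its values were 4.37, 3.65 and 4.38 FPKM in WT and 4.73, 4.90 and 4.78 FPKM in KO, higher in KO but not called (log2 change 0.18, adjusted p = 0.0786).

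Of 5 inhibitors of the pathway, 4 were tested, of which 3 were called lower (18.8% of all tested genes) and 1 higher (24.5%), with a median log2 change of -0.66. Socs3, an inhibitor of Jak kinases, had 14.1, 14.2 and 12.9 FPKM in WT and 3.41, 3.31 and 3.60 FPKM in KO, a 3.99-fold difference of the means (log2 change -1.73, adjusted p = 2.70e-06). Usp18, which blocks the type I receptor and is itself induced by interferon, fell from 13.5 ± 0.0995 to 6.15 ± 0.270 FPKM (log2 change -1.02, adjusted p = 7.78e-06).

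Other interferon-induced genes changed as well. Of 12 genes known as targets of interferon-gamma, 6 were tested and 5 were called lower, with a median log2 change of -0.77, beside 18.8% of all tested genes called lower. These too are descriptions, since Cxcl10 and Psmb9 had KO means under 1 FPKM. Without the filter 7 were above 0 and 5 of them were called lower, beside 8.13% of all genes. Cxcl10, a chemokine that attracts T cells, had 5.53, 6.62 and 5.52 FPKM in WT and 0.575, 0.165 and 0.200 FPKM in KO (log2 change -2.40, SE 0.136, adjusted p = 3.59e-05). Cd274, which encodes the checkpoint ligand PD-L1, fell from 14.7 ± 0.719 to 5.36 ± 0.462 FPKM (log2 change -1.31, adjusted p = 2.04e-05). Cd74, the invariant chain of class II antigen presentation, and Tap1, the peptide transporter of class I presentation, had KO means at 58.2% and 49.8% of WT (adjusted p = 0.00399 and 0.00190). Ciita, H2-Aa, H2-Ab1, H2-Eb1 and Cxcl9 were listed at 0 in all libraries.

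Of 11 type I interferon targets, 8 were tested and 8 were called lower, with a median log2 change of -1.39, beside 18.8% of all tested genes called lower. The count and median are descriptions, since Ifit1 and Oasl2 passed the filter only through their WT values. Without the filter 8 of 11 were called lower, beside 8.13% of all genes. Irf7, a master factor of the type I response, had 15.7, 14.7 and 16.5 FPKM in WT and 2.19, 2.31 and 2.09 FPKM in KO (log2 change -2.38, SE 0.0553, adjusted p = 9.33e-07). Isg15, a ubiquitin-like protein, fell from 25.3 ± 1.86 to 4.05 ± 0.613 FPKM, and Rsad2, the antiviral enzyme viperin, from 19.1 ± 0.829 to 4.78 ± 0.525 FPKM. Oasl2, Oas2 and Ifit1, antiviral sensors and effectors, had KO means at 18.3%, 43.2% and 26.5% of WT. Ifit2, an antiviral effector, had the smallest change of the 8 tested genes (log2 change -0.36, adjusted p = 0.0238). Its call was lost without a filter (0.0642), with the replicate block (0.0600) and without WT replicate 1, WT replicate 3, KO replicate 1 or KO replicate 3 (0.0646 to 0.0730). The call of Oasl1, of the same family as Oasl2, was lost without a filter (0.0965), with the block (0.0734) and without WT replicate 2, WT replicate 3, KO replicate 2 or KO replicate 3 (0.0598 to 0.104).

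GBPs and IRGs depend on the machinery that attaches Atg8 proteins to membranes, on ubiquitin and, for some GBPs, on a lipid anchor. Of 10 genes for Atg8 proteins and their conjugation, 1 was called lower and 4 higher, where 18.8% and 24.5% of all tested genes were. The lower gene was Atg12, a ubiquitin-like protein of the conjugation complex, with 11.6, 11.8 and 11.4 FPKM in WT and 7.50, 7.73 and 7.57 FPKM in KO (log2 change -0.55, adjusted p = 5.29e-05). The 4 higher genes, Map1lc3a, Map1lc3b, Gabarap and Gabarapl2, encode Atg8 proteins and had log2 changes between 0.21 and 0.37. The call of Map1lc3a was lost without WT replicate 1, WT replicate 3, KO replicate 2 or KO replicate 3 (adjusted p from 0.0779 to 0.0899), without a filter (0.0737) and on the common-sum scale (0.0535). That of Gabarapl2 was lost without any 1 library but KO replicate 2 (0.0505 to 0.0686) and without a filter (0.0558). Of 3 ubiquitin genes, 1 was called lower (18.8% of all tested genes) and 0 higher (24.5%). The lower gene, Sqstm1, an adaptor between ubiquitin and Atg8 proteins, stood at 423, 419 and 419 FPKM in WT and 211, 212 and 207 FPKM in KO, 2.00-fold lower (log2 change -0.998, SE 0.0175, adjusted p = 3.04e-07). Trim21 was not called (adjusted p = 0.112). Traf6 was higher in every KO library but not called (0.0631), and was called higher without KO replicate 2 (0.0308). Of 5 prenylation genes, which supply the lipid anchor, 1 was called lower (18.8% of all tested genes) and 0 higher (24.5%), and none changed by 0.5 or more on the log2 scale.

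Of 6 inflammasome genes, through which GBPs act in the cytosol, 5 were tested. Of these, 2 were called lower and 0 higher, against 18.8% and 24.5% of all tested genes. The gene not tested, Pycard, did not exceed 0.0943 FPKM and was under its floor of 3 fragments in all 6 libraries. Casp4, the caspase that senses bacterial lipopolysaccharide and is also called caspase-11 in mice, had 5.97, 6.15 and 6.79 FPKM in WT and 1.71, 1.88 and 1.62 FPKM in KO (log2 change -1.41, SE 0.0665, adjusted p = 1.59e-05). Nlrp3, an inflammasome sensor, fell from 17.3 ± 1.45 to 7.38 ± 0.471 FPKM (log2 change -1.13, adjusted p = 5.58e-05). The sensor Aim2 had 11.4 ± 1.22 and 13.4 ± 0.751 FPKM, was not called (adjusted p = 0.0649), and was called higher without WT replicate 1 (0.0164). Gsdmd, the pore protein cut by these caspases, and Casp1 were not called, with KO means at 103% and 97.8% of WT.

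**Figure D5:**
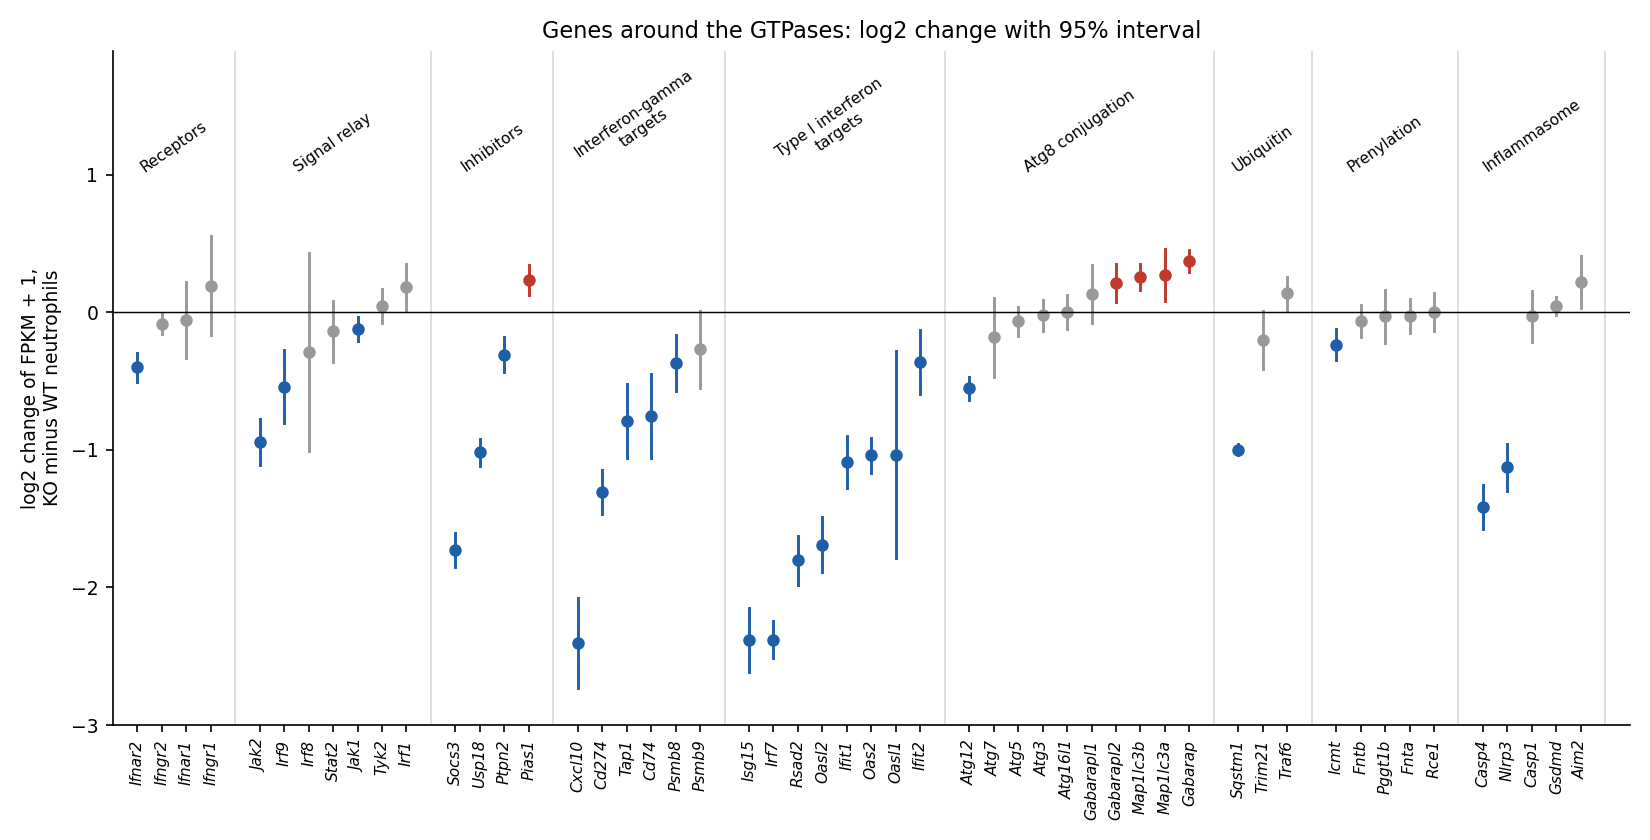
Log2 change of FPKM + 1 between KO and WT with its 95% interval for most of the tested genes of 9 lists around the GTPases, sorted within each list, in blue where called lower, red where called higher and grey where not called. The 8 tested type I interferon targets lie between -2.38 and -0.36, the receptors between -0.40 and 0.19, and the prenylation genes between -0.24 and 0.00.

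Marker genes of several cell types were compared between the groups as well. Whether a difference in these markers came from the cells in the sort or from their expression was not tested. The FPKM of 15 neutrophil markers summed to between 118 and 122 in WT and between 1.80 and 2.64 in KO, nearly all of it from Lcn2 and Mmp9. Without these 2 genes the sums were 2.03 to 2.30 and 0.791 to 1.27, and Ly6g, S100a9, Mpo, Elane, Ltf and Retnlg were listed at 0 in all 6 libraries. Of the 9 markers above 0 in any library, 6 were lower in every KO library than in any WT library and 0 higher, beside 15.2% and 17.7% of all genes above 0. Besides Lcn2, Mmp9 and Cd177 these were Csf3r, with means of 0.621 and 0.302 FPKM, S100a8, with 0.405 and 0.110 FPKM, and Camp, with 0.285 and 0.0902 FPKM, the last 2 at or under their floors in 4 and 5 of 6 libraries. Cxcr2, with means of 0.445 and 0.293 FPKM, and Mmp8, with 0.151 and 0.136 FPKM, overlapped between the groups, and Ngp was above 0 in a single KO library. The part of neutrophil RNA in the differences of the GTPases was not tested. Of 11 T and NK cell markers, cells that make interferon-gamma, 10 were listed at 0 throughout and the summed level did not exceed 0.0386 FPKM. The summed levels of B cell, astrocyte and oligodendrocyte, and endothelial markers were at most 0.109, 0.379 and 0.315 FPKM in any library. The endothelial sum was 0.259 to 0.315 FPKM in WT and 0.106 to 0.142 FPKM in KO. Of the 4 endothelial markers above 0, 1 (Pecam1) was lower and 1 (Kdr) higher in KO without overlap, beside 15.2% and 17.7% of all genes above 0. Pecam1 was at or under its floor in 3 libraries. Among 12 macrophage and microglia markers, whose sum was 966 to 1013 in WT and 1067 to 1097 in KO, P2ry12, Tmem119 and Aif1 were under 1 FPKM in all libraries, while Cd68 and Tyrobp were above 100. Of these 12 markers 9 were tested, of which 3 were called lower and 4 higher, where 18.8% and 24.5% of all tested genes were. Adgre1, which encodes the macrophage surface protein F4/80, fell from 101 ± 2.67 to 39.3 ± 1.56 FPKM (log2 change -1.34, adjusted p = 1.74e-06), Cx3cr1 from 2.74 to 1.14 FPKM and Fcer1g from 191 to 157 FPKM (adjusted p = 0.00148 and 0.00152). Cd68 rose from 372 to 491 FPKM and Tyrobp from 137 to 191 FPKM (adjusted p = 5.92e-05 and 0.000724). The part of these differences in those of the GTPases was not tested. Cd177 itself had 0.477, 0.113 and 0.151 FPKM in WT and 0.109, 0.0217 and 0.0845 FPKM in KO. Because the sorted cells were WT in both groups, this does not check the neutrophil genotype. The correlation of log2 values between libraries was 0.988 to 0.989 within a group and 0.957 to 0.959 between groups, and no library stood apart from its group.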

How the data were processed

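The authors deposited a table of FPKM values, with 1 column per library and no pooling. The submitters' processing notes list fastp 0.17.1 and HISAT2 2.1.0; the quantification program, genome build and annotation are not given in the sources used here, and the labels and the study's methods name different library kits and sequencers. Of 55335 identifiers, 55154 were matched to symbols and positions in GENCODE M21 (GRCm38). Read counts were not part of the input, and the test was chosen for FPKM. Depth was estimated from the steps between low values as 15.8 to 19.6 (in units of 1000000 fragments) per library, but only 16.2% to 18.6% of low values lay within 0.05 of a whole fragment (10.0% by chance), so fragments could not be recovered and the floor of 3 fragments is approximate. It covers counting error only.

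limma 3.58.1 in R 4.3.3 (lmFit, eBayes with a mean-variance trend) was run on log2(FPKM + 1) for KO minus WT over the 11395 genes averaging 1 FPKM or more, with Benjamini-Hochberg adjustment over all of them and a call at an adjusted p under 0.05. It was tested on simulated data. Exact two-sided permutation tests were added for single genes. Samples were grouped by the neutrophil genotype in their titles. Sequences came from RefSeq promoter windows; shared sequence was measured over all 50-base stretches of GENCODE transcripts. Alternatives changed the pseudocount, filter, scaling, variance trend, replicate block and each library in turn.

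The members and gene lists were chosen with earlier results of these data known. Named were the 10 members, tested family genes, in each list up to 6 called genes with a log2 change of at least 0.5 in size, Ifng, Ifnb1, the receptors, Irf1, Cd177 and the 5 most similar genes; some genes this rule covers are not reported here, and other named genes were chosen after their values were seen.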

Additional observations from a re-analysis of the deposited data

How the results depend on the processing

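Calls of Gbp7, Irgm1 and Igtp held under every alternative in which they were tested, and no called result changed direction. No member reached the stricter minimum of 5 FPKM, so that alternative gives no value for them. For Irgm2 the adjusted p passed 0.05 without a filter (log2 change -0.43) and with the replicate block (-0.43, adjusted p = 0.0625), and without single libraries its change ran from -0.56 to -0.35. The log2 change of Gbp2 was -1.54 with a pseudocount of 0.1 and no filter, an alternative chosen after seeing the data. The median change of the tested members was -0.68 with a pseudocount of 0.1, -0.40 without a filter (10 genes) and -0.68 on the common-sum scale. The family genes called lower outside the members numbered 4 without a filter in place of 2, and those called higher 0 at a minimum of 5 FPKM in place of 2, since neither reaches it. Of 53 tested genes in the surrounding lists, 26 were called lower (18.8% of all tested genes), with 19 to 27 over the alternatives, and 5 higher (24.5%), against 3 without a filter and between 3 and 5 without single libraries. Replicate numbers did not pair the samples (correlation of deviations -0.0751, -0.0524 and -0.00518). With the block 3 of the 4 tested members stayed lower, and 1839 genes were lower and 2373 higher. A longer ISRE form matched 5 of 7 members in place of 7. Depth limits the 3 members under the floor, for which no difference could be seen.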
